A study of Homo sapiens with 4 samples.

Results

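AP-1 and the immediate early genes were followed here through 10 transcripts, chosen by name as a gene family and not by their measured values: FOS, FOSB, FOSL1, FOSL2, JUN, JUNB, JUND, EGR1, IER2 and ATF3. Earlier results of these data were known when the genes were chosen. All 10 were found among the 60721 genes of the count table, and all 10 were among the 16137 genes abundant enough to be tested. Hs578T, an established line from a human breast carcinoma, was co-transfected with GFP and with RNA at 1.6 µM. That RNA was either non-targeting (SCR) or an siRNA against TLN1, the gene of talin-1 (siTLN1), and polyadenylated RNA was collected 48 h later. Each group held 2 biological replicates, so the cells of both groups had been transfected and both carried GFP. All samples come from this 1 line, and whether the siRNA was a single sequence or a pool is not given in the sources used here.

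AP-1 is a dimer of proteins that share a basic leucine zipper, a domain that pairs the partners and grips DNA. JUN-family proteins can pair with themselves, whereas FOS-family proteins need a JUN-family or other partner, and the dimer binds the word TGANTCA or the related word TGACGTCA. FOS, FOSB, JUN, JUNB, EGR1, IER2 and ATF3 are textbook immediate early or stress-induced genes: serum, growth factors or attachment to matrix switch them on within minutes through kinases such as ERK, JNK and p38 and through the serum response factor, and their transcripts decay quickly. FOSL1 (FRA-1) and FOSL2 (FRA-2) are made for longer after a stimulus, and FOSL1 is known for its high level in mesenchymal breast carcinoma cells. Talin-1 links integrins to actin, which is where signals from matrix attachment to these kinases begin.

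Promoter windows from RefSeq (GRCh38.p14; 250 bases before to 50 after each start) matched 9 of the 10 genes, FOSL1 being the exception, with 10 windows because ATF3 has more than 1 start. For 4 of the 10 genes, against 48.4% of all tested genes, libraries did not overlap between the groups. None of these 4 genes passed edgeR's test given below. Shown are their windows. Each is written 5′ to 3′ along the gene, and capitals mark every match, on either strand, to the CArG box of serum response factor, to TGANTCA, TGACGTCA or TGACATCA, or to the EGR-type word GCGNGGGCG. They lie at chr5:138465229-138465528 (plus strand, EGR1), chr14:75278578-75278877 (plus, FOS), chr2:28392608-28392907 (plus, FOSL2) and chr1:58783998-58784297 (minus, JUN).
EGR1: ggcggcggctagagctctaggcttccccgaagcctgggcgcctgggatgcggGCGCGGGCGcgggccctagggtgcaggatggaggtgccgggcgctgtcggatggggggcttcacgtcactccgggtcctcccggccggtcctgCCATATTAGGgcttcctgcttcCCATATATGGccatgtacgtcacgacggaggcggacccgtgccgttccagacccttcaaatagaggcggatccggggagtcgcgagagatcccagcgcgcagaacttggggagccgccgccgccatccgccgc
FOS: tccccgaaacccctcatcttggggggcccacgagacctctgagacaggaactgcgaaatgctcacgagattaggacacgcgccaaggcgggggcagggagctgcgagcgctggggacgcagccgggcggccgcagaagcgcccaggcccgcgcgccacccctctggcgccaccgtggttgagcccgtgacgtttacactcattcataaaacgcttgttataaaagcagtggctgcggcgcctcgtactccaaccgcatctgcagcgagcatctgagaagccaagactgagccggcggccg
FOSL2: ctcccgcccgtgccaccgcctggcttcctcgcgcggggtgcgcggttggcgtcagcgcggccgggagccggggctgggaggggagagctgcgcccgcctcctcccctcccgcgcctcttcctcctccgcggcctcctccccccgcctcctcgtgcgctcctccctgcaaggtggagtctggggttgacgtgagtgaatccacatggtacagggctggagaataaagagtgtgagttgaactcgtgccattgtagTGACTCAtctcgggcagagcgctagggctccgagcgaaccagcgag
JUN: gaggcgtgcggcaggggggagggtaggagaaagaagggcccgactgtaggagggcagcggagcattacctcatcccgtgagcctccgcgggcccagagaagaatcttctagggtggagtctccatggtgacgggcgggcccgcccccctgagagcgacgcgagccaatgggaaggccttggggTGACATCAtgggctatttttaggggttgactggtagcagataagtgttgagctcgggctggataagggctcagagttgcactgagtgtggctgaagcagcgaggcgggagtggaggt

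Positions count back from -1, the base just before the start. The EGR1 window held 2 CArG boxes, whose first bases lie at -105 and -83, and 1 copy of GCGNGGGCG at -198. Among all 35116 RefSeq windows of this length, 1.29% held a CArG box and 9.43% held GCGNGGGCG. JUN held TGACATCA at -67 and the upstream window of ATF3 held it at -123, against 2.61% of all windows. FOSL2 held TGACTCA, a form of TGANTCA, at base 5 of the transcript, against 7.71% of all windows with TGANTCA. JUND held TGACGTCA at -200, against 1.85% of all windows. The windows of FOS, FOSB, JUNB and IER2 and the downstream window of ATF3 held none of the words searched. Bases beyond the windows were not searched, so a word may lie further from any of these starts. These matches describe the letters in the windows only.

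The libraries held 31854322 to 46353297 counts. TLN1, which checks the labels, stood at 868 and 874 CPM (counts scaled to library size with TMM factors) in SCR and at 51.9 and 44.8 CPM in siTLN1, or 5.55% of the SCR mean. The cells were labelled epithelial, but of 10 epithelial marker genes 7 averaged under 1 CPM, EPCAM and CDH1 among them, and GRHL2 had no count. KRT18 was present at 104 to 131 CPM, and the mesenchymal markers VIM (3811 to 3968 CPM) and FN1 (23550 to 32370 CPM) were abundant in each library. Of the 10 mesenchymal markers 2 passed edgeR's test (20%, beside 6.07% of all tested genes), both lower in siTLN1. CDH2 stood at 569 and 535 CPM in SCR against 303 and 293 CPM in siTLN1, and SPARC at 5119 and 4917 against 3705 and 3500 CPM. The summed mesenchymal markers were 57580 and 55640 CPM in SCR and 61710 and 53750 CPM in siTLN1, and their part in the results was not tested. All 5 leukocyte markers averaged under 1 CPM. The summed epithelial markers ranged from 123 to 153 CPM in SCR and from 132 to 143 CPM in siTLN1. In bulk RNA, fewer cells expressing a gene and less RNA per cell cannot be told apart.

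The 4 count columns name their group and a further number that recurs once in each group. What that number marks, and whether it pairs libraries by a shared preparation, is not given in the sources used here. It names the libraries, a for the lower and b for the higher. By their values, library a of each group matched replicate 1 of the deposited log2 CPM, and library b matched replicate 2. For JUNB, replicates 1 and 2 stood at 5.05 and 5.64 log2 CPM in SCR and at 5.07 and 5.40 in siTLN1. Libraries a and b stood at 33.03 and 49.9 CPM in SCR and at 33.5 and 42.3 CPM in siTLN1. A term for the replicate number thus separates the same libraries as the letters do. Nothing in the labels says how the replicates were separated beyond calling them biological, so p-values measure the spread between these libraries.

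Levels were compared between genes per kilobase of exon (CPM per kb). FOSL1 led at 207 to 213 CPM per kb over the 4 libraries, above 99.3% of the tested genes. JUN followed at 49.9 to 63.2, FOSL2 at 31.8 to 35.2, JUNB at 18.0 to 27.3 and JUND at 15.3 to 22.5 CPM per kb. IER2, a short nuclear protein of the immediate early class, ranged from 11.2 to 13.2 CPM per kb and the zinc-finger factor EGR1 from 8.22 to 12.8. ATF3, a stress-induced partner of JUN proteins, ranged from 3.26 to 4.96 CPM per kb. FOS (0.336 to 0.494) and FOSB (0.172 to 0.267 CPM per kb) were lowest, above 18.8% and 12.3% of the tested genes. The ranges of neighbours in this order overlapped for JUNB with JUND and for IER2 with EGR1, and for no other neighbours. Genes on the opposite strand share 52.22% of the exon bases of IER2 and 14.15% of those of JUNB. The counting used no strand option, so the places of IER2 and JUNB in this order are uncertain.

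**Figure D1:**
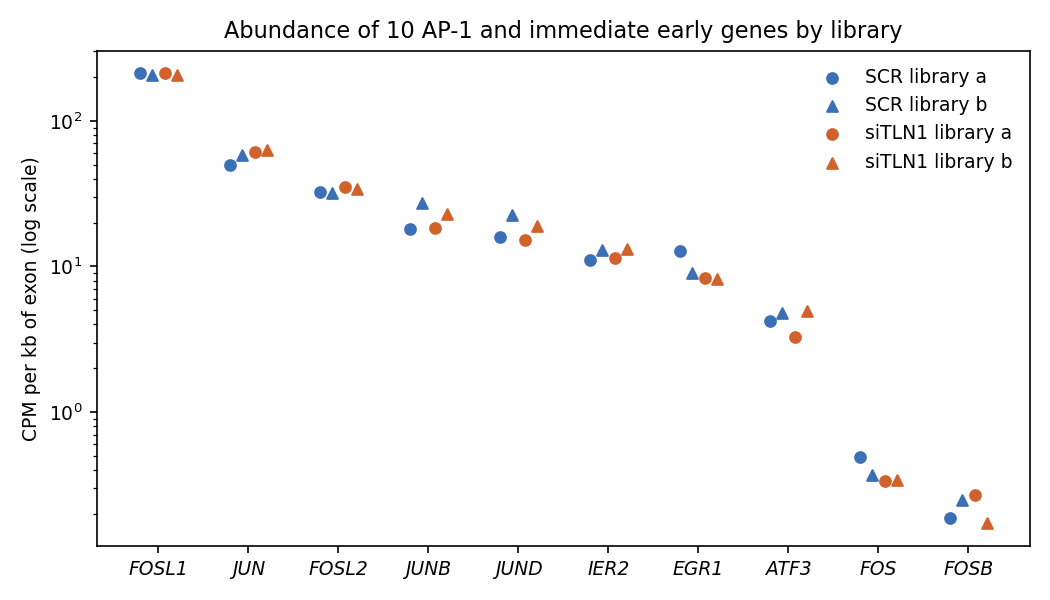
Abundance per kilobase of exon on a log axis for the 10 genes, ordered by their mean, with 1 point per library (blue SCR, orange siTLN1, circles library a, triangles library b). FOSL1 sits at 207 to 213 CPM per kb and FOS and FOSB lie under 0.5 in all 4 libraries.

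Within the FOS family, FOSL1 made up 86.5% and 86.6% of the summed CPM per kb in SCR and 85.6% and 85.7% in siTLN1, and FOSL2 nearly all of the rest (13.2% in both SCR libraries, 14.2% and 14.1% in siTLN1). FOS contributed 0.136% to 0.201% and FOSB 0.0715% to 0.108%. FOSL1 thus exceeded FOS per kb by 431-fold and 564-fold in SCR and by 631-fold and 606-fold in siTLN1. Within the JUN family, JUN made up 59.6% and 54.1% in SCR against 64.7% and 60.0% in siTLN1, JUNB 21.5% and 25.2% against 19.2% and 21.9%, and JUND 18.9% and 20.8% against 16.1% and 18.1%. The shares of JUN, JUND, FOS, FOSL1 and FOSL2 did not overlap between the groups, but with 2 libraries against 2 an exact two-sided permutation test cannot go below p = 0.333, the value each of them reached. Shares within a family also depend on each other, so those of FOSL1 and FOSL2 are not separate observations. The JUN-family shares carry the uncertainty in the level of JUNB.

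The main question was whether loss of the TLN1 transcript changed these genes. None of the 10 passed edgeR's quasi-likelihood test at an adjusted p under 0.05, against 6.07% of all tested genes (2.3% higher and 3.77% lower in siTLN1). At an unadjusted p under 0.05 there was 1 of the 10, EGR1, against 19.8% of all tested genes. Libraries did not overlap between groups for EGR1, FOS, FOSL2 and JUN, which is 4 of 10 genes against 48.4% of all tested genes. The median log2 fold change of the 10 was −0.08, with 3 above 0 and 7 below, against a median of 0.0033 over all tested genes. DESeq2 also passed none, but it gave no adjusted p for FOS and FOSB. Neither limma-voom nor limma-trend without a term for the replicate number passed any. With that term, limma-trend passed 22.6% of all tested genes and 2 of the 10, EGR1 (adjusted p 0.000504) and JUN (0.00906). The labels do not say whether equal replicate numbers mark a shared preparation. With libraries scaled by total counts only, EGR1 passed.

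**Figure D2:**
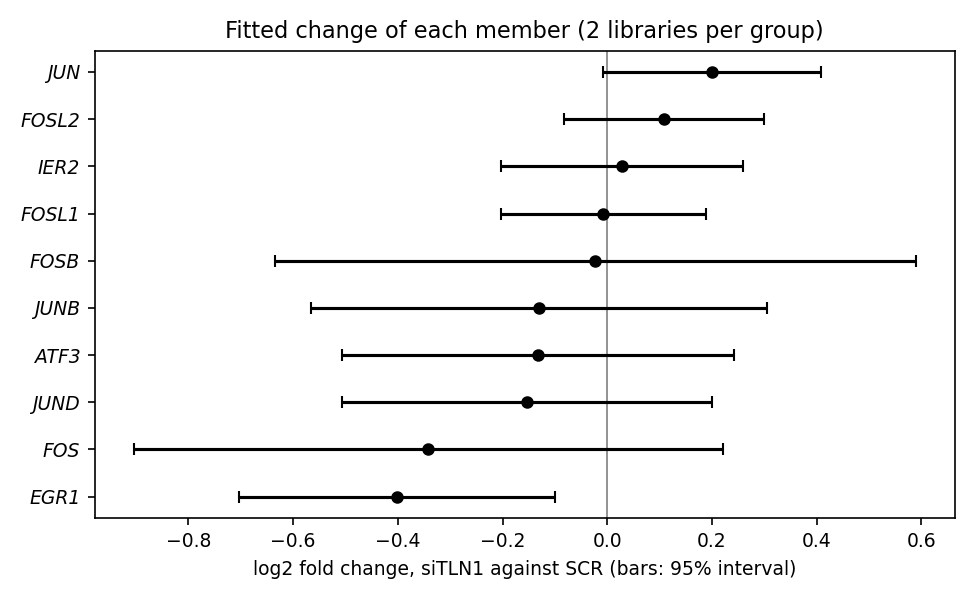
Fitted log2 fold change of each gene, siTLN1 against SCR, with its 95% interval (edgeR, 2 libraries per group). The intervals run from −0.90 for the low end of FOS to 0.59 for the high end of FOSB, and that of EGR1 alone, −0.70 to −0.10, leaves out 0.

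Among the FOS family, FOSL1 hardly differed between libraries. It stood at 401 and 393 CPM in SCR and at 400 and 390 CPM in siTLN1, so the groups overlapped. Its log2 fold change was −0.0077 ± 0.09 (SE), and the 95% interval of the fold ran from 0.868 to 1.14. FOSL1 lies on chromosome 11, 65892049 to 65900573 (minus strand; GRCh38, as all gene positions here). FOSL2 (chromosome 2, 28392448 to 28417317, plus strand) stood at 233 and 227 CPM in SCR and at 252 and 244 CPM in siTLN1. Both siTLN1 libraries were above both SCR libraries, by a small margin, with a log2 fold change of 0.11 ± 0.09 (SE), an interval of the fold of 0.944 to 1.23 and an adjusted p of 0.569 in edgeR's test.

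FOS, the founding member of the family, was close to the limit of the assay, at 50 and 41 counts in SCR and 39 and 51 in siTLN1. These are 1.57 and 1.18 CPM against 1.07 and 1.09 CPM. Both siTLN1 libraries were below both SCR libraries, but the log2 fold change of −0.34 ± 0.27 (SE) had an adjusted p of 0.53 in edgeR's test and an interval of the fold of 0.534 to 1.17. Without SCR library a it was −0.13, and without SCR library b −0.54. Its position is chromosome 14, 75278826 to 75282230 (plus strand). FOSB, on chromosome 19 (45467995 to 45475179, plus strand), had 33 and 48 counts in SCR and 54 and 45 in siTLN1, or 1.04 and 1.38 CPM against 1.48 and 0.958 CPM. The siTLN1 libraries held both its highest and its lowest value. Its interval of the fold, 0.644 to 1.5, reached highest of the 10, and these libraries do not tell a change within those bounds from none.

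The JUN family supplies the usual partners of FOS-family proteins in AP-1. JUN (chromosome 1, 58780791 to 58784047, minus strand) stood at 163 and 191 CPM in SCR and at 200.1 and 206 CPM in siTLN1. Both siTLN1 libraries were above both SCR libraries, and the gap to SCR library b was smaller than the gap between the SCR libraries. The log2 fold change was 0.20 ± 0.10 (SE), with a p of 0.0588 in edgeR's test, 0.277 after adjustment, and an interval of the fold of 0.994 to 1.33. Without SCR library a the log2 fold change was 0.09, and without SCR library b it was 0.32.

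JUNB and JUND, the other family members, differed more between the library letters than between the siRNA groups. JUNB (chromosome 19, 12791486 to 12793315, plus strand) stood at 33.03 and 49.9 CPM in SCR libraries a and b and at 33.5 and 42.3 CPM in siTLN1 libraries a and b. JUND (chromosome 19, 18279694 to 18281622, minus strand) stood at 30.5 and 43.4 CPM in SCR and at 29.5 and 36.9 CPM in siTLN1, in the same order. In each gene both b libraries exceeded both a libraries, and the groups overlapped. The log2 fold changes were −0.13 ± 0.19 (SE) for JUNB and −0.15 ± 0.16 (SE) for JUND, with adjusted p of 0.785 and 0.672 in edgeR's test. Which SCR library was kept set the outcome: without SCR library a both genes passed (log2 fold changes of −0.40 and −0.38, edgeR adjusted p of 0.0327 and 0.0433), and without SCR library b both values were positive (0.20 and 0.12). Compared only among libraries of 1 letter, the log2 difference of siTLN1 from SCR for JUNB was 0.019 in a and −0.239 in b, and for JUND −0.047 in a and −0.235 in b. HOOK2, on the opposite strand, shares 14.15% of the exon bases of JUNB, and the counting used no strand option, so the level of JUNB is uncertain.

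EGR1, which encodes a zinc-finger factor switched on through CArG boxes such as those capitalised above, had the largest difference of the 10. It lies on chromosome 5, 138465479 to 138469303 (plus strand). It stood at 40.1 and 28.4 CPM in SCR (34.2 ± 8.28, SD, n = 2) and at 25.96 and 25.79 CPM in siTLN1 (25.9 ± 0.119, SD, n = 2), or 75.6% of the SCR mean. Both siTLN1 libraries were below both SCR libraries, and SCR library a stood apart from the other 3. The log2 fold change was −0.40 ± 0.14 (SE), the interval of the fold ran from 0.614 to 0.933, and the p in edgeR's test was 0.0131, or 0.12 after adjustment. Without SCR library a the log2 fold change was −0.13 (edgeR adjusted p 0.662), without SCR library b it was −0.63 (9.04e-05), and with total counts only it was −0.40 (0.0433). Among libraries of letter a the log2 difference was −0.625, and among those of letter b −0.137.

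IER2 (chromosome 19, 13150411 to 13154911, plus strand) stood at 34.4 and 39.9 CPM in SCR and at 35.1 and 40.5 CPM in siTLN1. As in JUNB and JUND, both b libraries exceeded both a libraries, and the siRNA groups overlapped. Its log2 fold change was 0.03 ± 0.11 (SE), with an interval of the fold of 0.868 to 1.2. Unnamed genes on the opposite strand share 52.22% of the exon bases of IER2, so its level is uncertain. ATF3 (chromosome 1, 212565334 to 212620777, plus strand) stood at 17.1 and 19.4 CPM in SCR and at 13.2 and 20.05 CPM in siTLN1, which held both the lowest and the highest value. Its log2 fold change was −0.13 ± 0.17 (SE), with an adjusted p of 0.746 in edgeR's test. The log2 difference of ATF3 was −0.378 among libraries of letter a and 0.044 among those of letter b.

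JUNB, JUND and IER2 exceeded their a library in the b library by more than 0.2 on the log2 scale in both groups, which is 3 of 10 genes against 6.1% of all tested genes. EGR1 and FOS had the opposite order in SCR (b minus a of −0.498 and −0.402) and nearly equal libraries in siTLN1 (−0.009 and 0.018). FOSL1 and FOSL2 differed by less than 0.05 between letters in either group. What separates a from b was not tested.

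**Figure D3:**
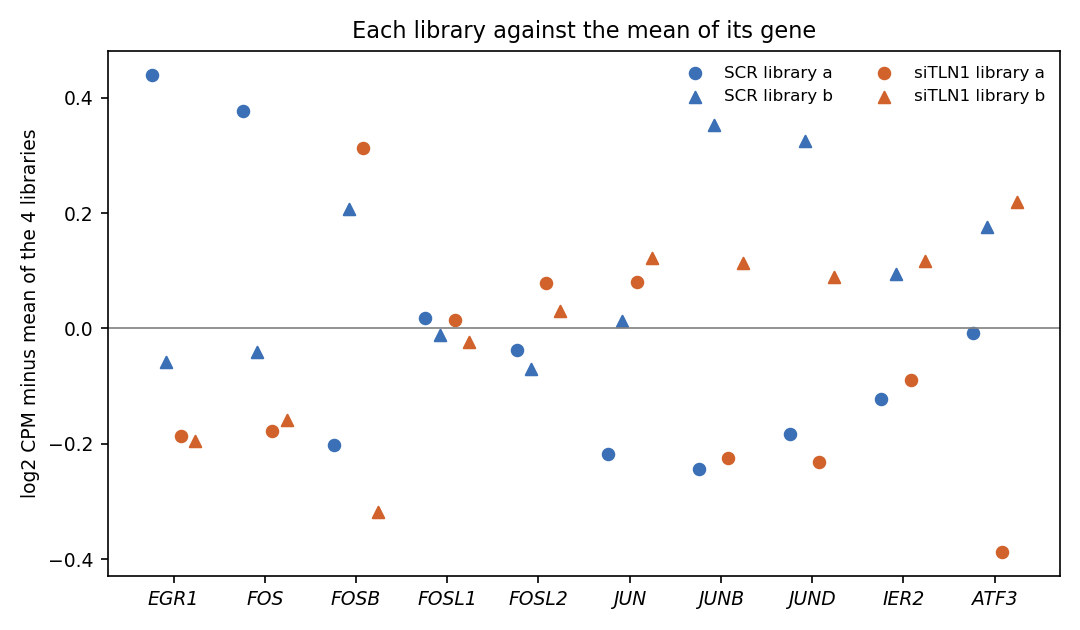
Log2 CPM of each library minus the mean of the 4 libraries for the same gene (blue SCR, orange siTLN1, circles library a, triangles library b). For JUNB, JUND and IER2 both triangles lie above both circles, and for EGR1 and FOS the SCR library a stands above the other 3.

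The 3 genes whose centred log2 CPM profile over the 4 libraries lay nearest to that of FOS, among 10486 genes of at least 5 CPM, were NUBPL, FRS2 and MTMR6, at root mean square distances of 0.00638, 0.0375 and 0.0434. FRS2 encodes an adaptor of fibroblast growth factor receptors. With 4 libraries such a likeness is a description of these values only, and the counts of FOS are low.

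The 7-base word GACAACA, chosen because an earlier search of many words in these same data had singled it out for lower values in siTLN1, was searched in GENCODE 29 transcripts. The values that follow are therefore a description of how it was chosen, not support for it. The median log2 fold change was −0.03 over 4262 genes with the word in some transcript and 0.01 over 11705 genes without it, TLN1 left out. None of the 51 annotated transcripts of the 10 genes held it.

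Wider lists of the pathway were then described by their counts. All were chosen with earlier results of these data known, so their shares are not independent of these data. The other leucine-zipper (bZIP) genes (ATF, CREB, CEBP, MAF and NFE2L families and others) held 31 tested genes of 33, of which 1 passed, and it fell. This was CREB3L2, a membrane-bound factor of the secretory pathway, at 316 and 285 CPM in SCR and 172 and 171 CPM in siTLN1, with a log2 fold change of −0.81 ± 0.09 (SE) and an adjusted p of 6.55e-05 in edgeR's test. The list's share of 3.23% stands beside the 6.07% of all genes, and its median log2 fold change was 0.0010. Of the transcripts of CREB3L2, 2 of 8 hold GACAACA, and whether this bears on its fall was not tested.

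Other immediate early genes, such as EGR2, NR4A1 and KLF4, held 37 tested genes of 38, and 2 passed, both lower. NFKBIA, the inhibitor of NF-kappa-B, stood at 41.6 and 43.8 CPM in SCR and at 30.03 and 32.5 CPM in siTLN1 (log2 fold change −0.45, edgeR adjusted p 0.0123). HES1, a Notch-responsive repressor, stood at 18.4 and 19.9 against 13.2 and 14.4 CPM (log2 fold change −0.47, edgeR adjusted p 0.0198). That is 5.41% of the list, beside 6.07% of all tested genes. The list's median log2 fold change was 0.0031. Both calls were lost without siTLN1 library a (edgeR adjusted p 0.207 and 0.233), and that of HES1 also without SCR library b (0.0791).

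Genes that feed back on ERK signalling held 25 tested genes, of which 1 rose and 3 fell. That is 16% of the list, beside 6.07% of all tested genes, in a list chosen with earlier results of these data known. DUSP7 and DUSP4 encode phosphatases that inactivate ERK and related kinases. DUSP7 fell from 58.8 and 64.7 CPM to 33.1 and 33.3 CPM (log2 fold change −0.90 ± 0.10 SE, edgeR adjusted p 3.24e-05). DUSP4 fell from 10.4 and 9.68 CPM to 5.11 and 4.94 CPM (log2 fold change −0.9998 ± 0.14 SE, edgeR adjusted p 0.000313). The other phosphatases and the SPRY and SPRED inhibitors of the list did not pass, and the list's median log2 fold change was 0.05. ERRFI1, an inhibitor of the EGF receptor, was the riser, at 74.9 and 77.1 CPM in SCR and 93.5 and 100.04 CPM in siTLN1 (0.35, adjusted p 0.0338). PHLDA2, an imprinted growth-restricting gene, stood at 54.2 and 68.3 against 40.2 and 48.9 CPM (−0.46, adjusted p 0.0498). The calls of ERRFI1 and PHLDA2 were lost with no filter on low counts (edgeR adjusted p 0.06 and 0.0998), and that of PHLDA2 with limma-voom (0.0543) and with limma-trend without a replicate term (0.0536). The call of ERRFI1 was lost in every fit that left out 1 library, and that of PHLDA2 without SCR library b or siTLN1 library a. GACAACA occurs in 1 of 2 transcripts of DUSP7 and in 1 of 2 of DUSP4, and its part in their fall was not tested.

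The kinases and cofactors that act upstream of AP-1 and EGR1 held 37 tested genes, of which 2 rose and 1 fell. That is 8.11% of the list, beside 6.07% of all tested genes, and the list's median log2 fold change was −0.0074. MAPK14, the p38-alpha stress kinase, fell from 94.6 and 87.0 CPM to 63.2 and 67.8 CPM (log2 fold change −0.47, edgeR adjusted p 0.00686), and 2 of its 10 transcripts hold GACAACA. RPS6KA1, a ribosomal S6 kinase that ERK activates, rose from 10.1 and 11.0 CPM to 16.1 and 14.9 CPM (0.55, adjusted p 0.0103). PTK2, which encodes focal adhesion kinase, rose from 171 and 163 CPM to 207 and 211 CPM (0.32, adjusted p 0.0433). Without siTLN1 library a the calls of MAPK14 and RPS6KA1 were lost (adjusted p 0.131 for each). The call of PTK2 was lost with no filter (0.0684) and in every fit that left out 1 library.

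Genes known as AP-1 targets held 39 tested genes of 45, of which 4 rose and 6 fell, or 25.6% of the list beside the 6.07% of all genes, with a median log2 fold change of −0.02. The list mixes matrix proteases, cytokines and growth factors, was written from general knowledge with earlier results of these data known, so its share is not independent of them, and says nothing of which factor acted on them here. CXCL8, the neutrophil chemokine interleukin-8, fell from 88.6 and 83.7 CPM to 32.5 and 41.9 CPM (log2 fold change −1.21 ± 0.12 SE, edgeR adjusted p 1.88e-05). EDN1, the vasoconstrictor endothelin-1, rose from 59.3 and 59.6 CPM to 117 and 98.2 CPM (0.85 ± 0.10 SE, adjusted p 7.73e-05). NQO1, a detoxifying quinone reductase, fell from 572 and 536 CPM to 320 and 313 CPM (−0.81, adjusted p 6.69e-05), and 19.35% of its exon bases are shared with a gene on the opposite strand. KRT14, a basal keratin, fell from 109 and 127 CPM to 66.2 and 68.1 CPM (−0.81, adjusted p 9.77e-05).

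A further 4 called targets are named here after their values were seen. The cytokines IL1B (log2 fold change −1.06) and IL6 (−0.64) fell, with edgeR adjusted p of 0.000413 and 0.0128. GJA1 (connexin 43, 0.60) and PLAU (urokinase, 0.40) rose, with edgeR adjusted p of 0.00174 and 0.0188. Genes on the other strand cover 20.69% of the exon bases of IL6 and 31.06% of those of PLAU. The calls of IL1B and GJA1 held in every fit that left out 1 library. That of IL6 was lost without siTLN1 library a (edgeR adjusted p 0.131), and that of PLAU in each of the 4 such fits (0.0642 to 0.12).

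**Figure D4:**
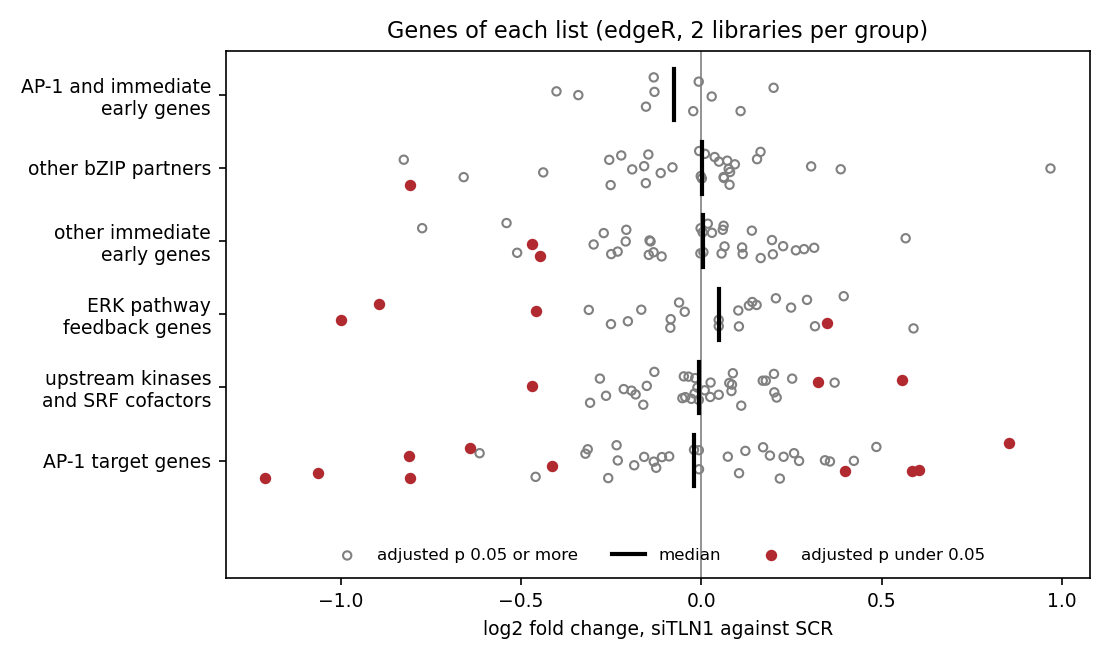
Log2 fold change of every tested gene in each list, siTLN1 against SCR, with filled points for an adjusted p under 0.05, open points for the others and a bar at the median of the list. No point of the AP-1 and immediate early genes is filled, and the 10 filled points of the AP-1 target list lie on both sides of 0.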

How the data were processed

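Per the file headers, the authors made raw counts per gene with featureCounts 2.0.0 in paired mode, with no strand option, on GENCODE 33 (GRCh38). STAR 2.7.9a, Subread 2.0.0 and edgeR 3.34.1 are named in the submitters' processing notes. The deposited count table also gives exon lengths in bases, in another unit than counts. A second deposited table holds log2 CPM, whose making the labels do not describe. Every per-sample column was mapped, and each row named a gene.

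Symbols were matched by Ensembl gene ID. Of 60721 genes, 16137 passed filterByExpr (minimum count 10, minimum total 15), and these held 99.9% of each library. Groups were compared with edgeR 4.0.16 in R 4.3.3 (TMM, robust glmQLFit, glmQLFTest), with Benjamini-Hochberg adjustment over all tested genes and 0.05 as the threshold. Standard errors and 95% intervals follow from the quasi-likelihood F. Replicates of a group differed by more than counting noise (chi-square over its degrees of freedom: 7.98 in SCR, 10.4 in siTLN1). Alternatives used RLE or total-count scaling, other filters, the legacy method, DESeq2 1.42.0, limma 3.58.1 (voom, and trend on the deposited log2 CPM with and without a replicate term), removal of the gene-length trend (span 0.3), and each library left out. An alternative in which an arm holds 1 library assumes that it varies like the other group. The procedure was tested on simulated data. The simulation gave every gene the same spread and no difference between library letters, so it does not vouch for the fit to these data. The planned fits with the replicate number used the log2 CPM table, because its columns carry the labels' numbers.

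The genes and lists were chosen with earlier results of these data known. Named are the 10 genes, TLN1, up to 4 called genes per list, by ascending p, and the 3 profiles nearest to FOS, since none of the 10 genes passed. Of the called AP-1 targets, 2 are not reported here by name. Promoters are from RefSeq (GRCh38.p14), and transcripts from GENCODE 29, which differs from the release of the counts. Figures used Python 3.11.15 with matplotlib 3.10.9.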

Additional observations from a re-analysis of the deposited data

How the results depend on the processing

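With all 4 libraries, 94 of 100 values of the 10 genes kept both their direction and their call, and with 1 library left out 27 of 40 did. The 94 include FOS in DESeq2, which had no adjusted p there and was counted as not passed. The count of the 10 genes that passed, 0, became 1 with total counts only (EGR1). It became 2 in limma-trend with a replicate term (EGR1 and JUN). The sign of FOSB turned with DESeq2 (0.0053), and its log2 fold change ran from −0.34 to 0.29 when 1 library was left out. That of FOSL1 turned with no filter on low counts (0.0046) and with the length trend removed (0.0212), and ran from −0.0242 to 0.0149. The same range was −0.40 to 0.20 for JUNB, −0.38 to 0.12 for JUND, −0.0760 to 0.14 for IER2 and −0.47 to 0.14 for ATF3. The cause was not tested.

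Of all tested genes 980 passed, and 324 to 1100 when 1 library was left out, with the lowest count without siTLN1 library a. Other leucine-zipper genes past the threshold numbered 3 with total counts only, 3 with DESeq2 and 2 with the length trend removed, against 1, and 2 to 4 with 1 library left out. The same range was 0 to 5 for other immediate early genes, 2 to 4 for ERK feedback genes (2 with no filter) and 0 to 3 for upstream genes (5 with the length trend removed). Of 200 values of the 20 list genes that passed, 195 kept their call with all 4 libraries, and 57 of 80 with 1 left out. None of these reversed. Of the genes tested in each fit, 7.76% passed with total counts only, 5.25% with DESeq2 and 8.71% with the length trend removed. DESeq2 gave no adjusted p for 3755 of its 16137 genes, which count here as not passed. With no filter 2.03% did, and in the main fit 6.07%.

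The replicate numbers of the labels mark no stated shared preparation. Across genes, the difference of replicate 2 from replicate 1 in SCR correlated with that in siTLN1 at 0.19 (0.536 where the mean is 5 CPM or more). With the replicate block, limma-trend on the deposited log2 CPM passed 3645 genes (22.6%), and 2 of the 10: EGR1 (−0.38, adjusted p 0.000504) and JUN (0.20, adjusted p 0.00906). In the lists it passed 10 other leucine-zipper genes, 14 other immediate early genes, 12 ERK feedback genes, 14 upstream genes and 23 AP-1 targets.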
